A study of Mus musculus with 32 samples.

Results

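The miR-130/miR-301 family was followed in small RNA libraries from mesenteric arteries of male mice. All mature miRNAs named miR-130a, miR-130b, miR-301a or miR-301b, from either arm of the hairpin, were taken as members, which gave 8 of the 870 miRNAs in the deposited table. The values are the authors' normalized signal, and the ending 3p or 5p in a name says from which arm of the precursor the miRNA comes.

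miRNAs are short RNAs that pair with messenger RNAs and lower their translation or stability, and the bases next to the 5′ end, called the seed, do most to choose the targets. Members of the miR-130/miR-301 family share their seed and are known for roles in endothelial and smooth muscle cells, in vascular remodelling and in pulmonary hypertension. miR-130a is known in the endothelium for repression of the homeobox genes Gax (Meox2) and Hoxa5, which hold back angiogenesis.

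There were 8 libraries from ieET-1 mice at long term, 8 from ieET-1 mice at short term, 7 from ieCre mice at long term and 7 from ieCre mice at short term. In ieET-1 mice, tamoxifen turns on the overexpression of endothelin-1, a peptide that constricts vessels, in endothelial cells, and ieCre mice are controls with a tamoxifen-inducible Cre recombinase. The Cre is driven by the Tie2 promoter, which the series' design text calls specific for the endothelium. All mice, controls included, were 10 to 12 weeks old at the start and received tamoxifen on 5 days at a daily dose of 1 mg/kg. Short-term mice were killed 16 days after it and long-term mice 3 months after it. The artery was freed of fat and veins but otherwise extracted whole, so that a member's level comes from all cells of the wall, and fewer cells of a type and less RNA per cell cannot be told apart.

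The mature sequences of the guide arms found in RefSeq (GRCm38.p6) are given first because the shared seed defines the family and because similar members can share reads. Capitals mark the seed, bases 2 to 8 counted from the 5′ end.
miR-130a-3p: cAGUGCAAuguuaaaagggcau
miR-130b-3p: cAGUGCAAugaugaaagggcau
miR-301a-3p: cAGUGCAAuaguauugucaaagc
The seed AGUGCAA stood in all 3 of these sequences. miR-130a-3p and miR-130b-3p had the same base at 20 of 22 positions and did not differ over their first 10 bases. miR-130a-3p and miR-301a-3p had the same base at 12 of 22 positions, and miR-130b-3p and miR-301a-3p at 11 of 22, with the first 9 bases shared in both cases. The sources used here do not give whether the authors' counting allowed mismatches, so that the level of miR-130b-3p is uncertain: it was between 0.592% and 2.62% of that of its abundant near-copy miR-130a-3p, and it may hold reads of it.

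The 5p arms, which are the passenger strands of these precursors, start with other bases.
miR-130a-5p: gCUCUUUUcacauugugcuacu
miR-130b-5p: aCUCUUUCccuguugcacuacu
miR-301a-5p: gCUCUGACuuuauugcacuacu
miR-301b-5p: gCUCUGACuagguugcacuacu
The passengers of miR-301a and miR-301b had 1 seed in common, CUCUGAC, whereas those of miR-130a and miR-130b had a different one each. miR-301b-3p is described by its values only. In all, 7 of the 8 members were matched to a RefSeq sequence.

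The members come from 3 chromosomes of the mouse genome, here in GRCm38 with GENCODE M21 genes matched by name. Mir130a lies at chr2:84741115-84741178 on the minus strand, between genes, 990 bases from Gm19426. Mir301, the precursor of miR-301a, lies at chr11:87113004-87113089 on the plus strand in an intron of Ska2, on the strand of that gene. Mir130b at chr16:17124061-17124142 and Mir301b at chr16:17124400-17124496, both on the minus strand, are 257 bases apart in an intron of 2610318N02Rik, a gene on the same strand. The authors' own build does not appear in the sources used here.

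The 2 abundant members were miR-130a-3p and miR-301a-3p, and the pair from chromosome 16 was scarce. miR-130a-3p averaged 234.8 ± 46.0 (normalized value, SD, n = 30 libraries) and was in place 64 of the 870 miRNAs by mean level. miR-301a-3p averaged 149.0 ± 56.1 and was in place 76. miR-130b-3p, at 3.14 ± 1.22, was in place 245, and miR-301b-3p, at 1.45 ± 1.19, in place 298. The 3 guide sequences given above are 22 or 23 bases long. miR-130a-3p held 61.0% ± 9.19 of the summed family value and miR-301a-3p 37.8% ± 9.15 (SD, n = 30). The 4 guide arms together made 0.0423% ± 0.0185 of all miRNA reads of a library.

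These 4 guide arms were the members that passed the filter on low values (a value of 1 or more in 8 or more libraries), together with 350 other miRNAs. The 4 passenger arms did not pass and entered no test. miR-130a-5p had 62 reads over the 30 libraries, which is 0.0457% of the reads of both arms (95% exact binomial interval 0.0351% to 0.0586%, counting error only). miR-301a-5p had 24 reads or 0.0266%, and miR-301b-5p had 1 read. miR-130b-5p had 65 reads, a share of 3.21% with an interval from 2.49% to 4.07%, so the passenger took a larger share of this precursor than of miR-130a, with intervals that do not overlap. By group, the share of miR-130b-5p was 3.82% in ieET-1 long, 2.99% in ieET-1 short, 4.40% in ieCre long and 2.86% in ieCre short arteries, with overlapping intervals. In ieET-1 long arteries miR-130a-5p had 15 of the 26254 reads of its precursor (0.0571%, interval 0.0320% to 0.0942%). No read of it was seen among 12910 reads of the precursor in ieCre long arteries, where 3 reads would be a share of 0.0232% and the 95% exact interval reaches 0.0286%. These reads sit in few libraries (11 of 30 hold any miR-130a-5p), and the difference was not tested over mice.

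Library depth and scaling set how far these levels can be read. The reads recovered from the table ranged from 1820166 to 35531345 per library, and 1 read stood for a value of 0.0178 to 0.480. miR-143 and miR-145, which mark smooth muscle, had summed medians of 656520 in ieET-1 long, 279081 in ieET-1 short, 643165 in ieCre long and 260179 in ieCre short arteries, and these markers are thus abundant in all groups, as the label of an artery asks. Each library carries its own animal number, so the libraries were treated as separate mice, and the p-values below reflect the spread between them. One pair of libraries stands apart in this respect: the libraries labelled ieET-1 short 258 and ieCre short 8 correlated at r = 0.9999 over all miRNAs, against 0.9963 for the next of the 435 pairs. In these libraries miR-130a-3p was 224.5 and 223.4, miR-301a-3p 161.2 and 164.9, miR-130b-3p 3.41 and 3.28, and miR-301b-3p 2.04 and 2.12. Whether both come from 1 mouse was not tested, and results were also computed without the pair.

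**Figure D1:**
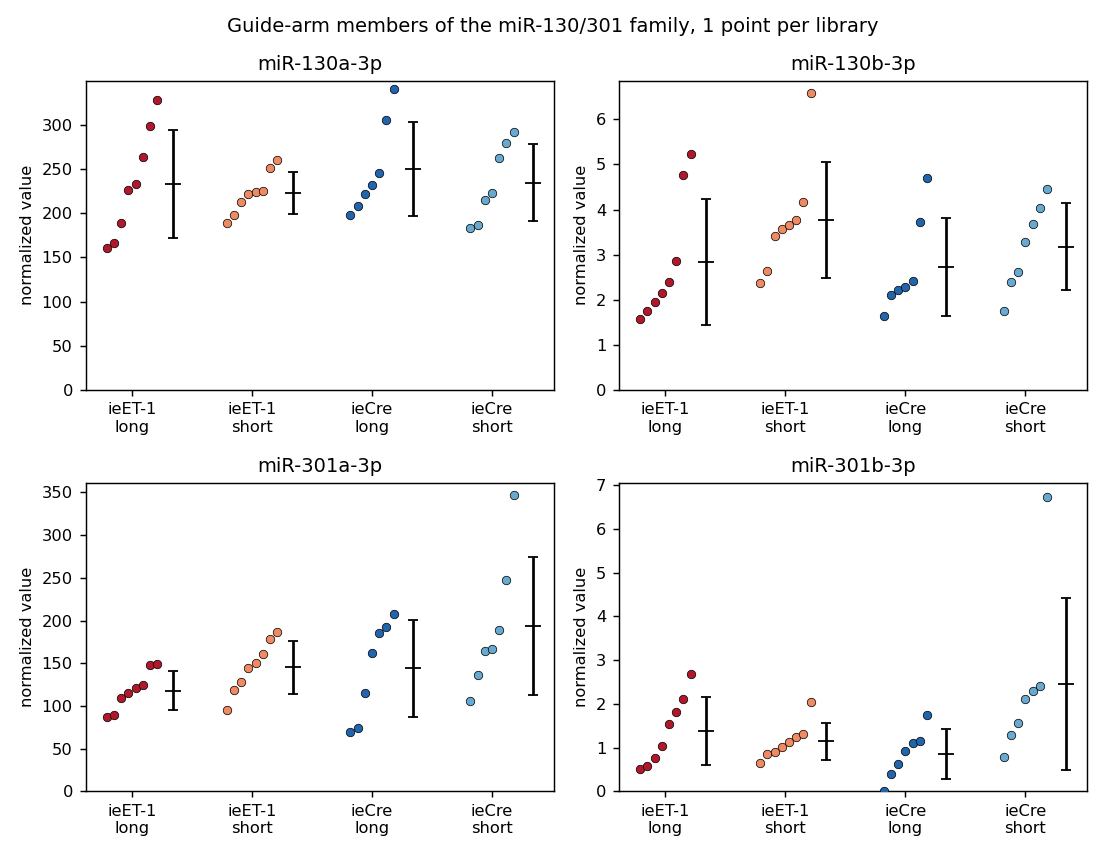
Normalized value of the 4 guide arms in each of the 30 libraries (1 point each, sorted within a group), with the group mean and SD beside the points, for ieET-1 long, ieET-1 short, ieCre long and ieCre short arteries. miR-130a-3p lies between 160 and 341 in every group, and the highest point of miR-301a-3p (348) and of miR-301b-3p (6.72) is the same ieCre short library.

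miR-130a-3p, the most abundant member, had nearly the same level in all groups. In ieET-1 long arteries its lowest, median and highest values were 160, 229 and 327.9, and in ieET-1 short arteries 188, 223 and 260. In ieCre long arteries they were 198, 232 and 341, and in ieCre short arteries 184, 223 and 292. All 4 groups overlap over most of their range, and the medians lie between 223 and 232. The mean was 233 ± 61.0 (SD, n = 8) in ieET-1 long, 223 ± 24.2 (n = 8) in ieET-1 short, 250 ± 53.2 (n = 7) in ieCre long and 235 ± 43.7 (n = 7) in ieCre short arteries. The spread between mice, 10.8% to 26.2% of the mean, was larger than the 1.43% to 2.94% that counting error alone gives at these depths.

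miR-301a-3p, which shares the seed but differs in most of its 3′ bases, was highest in ieCre short arteries and lowest in ieET-1 long arteries. Its lowest, median and highest values were 87.0, 118 and 149 in ieET-1 long, 94.9, 147 and 187 in ieET-1 short, 69.7, 162 and 208 in ieCre long, and 105, 167 and 348 in ieCre short arteries. The groups overlap, and the lowest library of all was an ieCre long one. The means were 118 ± 23.3 (SD, n = 8) in ieET-1 long, 145.3 ± 30.7 (n = 8) in ieET-1 short, 144 ± 57.3 (n = 7) in ieCre long and 193.7 ± 80.9 (n = 7) in ieCre short arteries. The coefficient of variation was 19.7% in ieET-1 long and 21.1% in ieET-1 short arteries, against 39.8% in ieCre long and 41.8% in ieCre short arteries, a difference that was not tested. Counting error gives 1.79% to 3.64% here.

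miR-130b-3p had lowest, median and highest values of 1.56, 2.28 and 5.23 in ieET-1 long, 2.36, 3.62 and 6.59 in ieET-1 short, 1.64, 2.29 and 4.70 in ieCre long, and 1.75, 3.28 and 4.46 in ieCre short arteries. Both short-term medians lie above both long-term medians, while the ranges overlap. Its means were 2.83 ± 1.40 (SD, n = 8) in ieET-1 long, 3.77 ± 1.29 (n = 8) in ieET-1 short, 2.72 ± 1.08 (n = 7) in ieCre long and 3.17 ± 0.965 (n = 7) in ieCre short arteries. The coefficient of variation was 49.4% in ieET-1 long, 34.1% in ieET-1 short, 39.7% in ieCre long and 30.4% in ieCre short arteries, where counting error alone gives 23.2%, 11.4%, 26.6% and 19.9% in the same order.

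miR-301b-3p, the scarcest guide arm, was highest in ieCre short arteries and lowest in ieCre long arteries. Its lowest, median and highest values were 0.520, 1.28 and 2.68 in ieET-1 long arteries and 0.647, 1.07 and 2.04 in ieET-1 short arteries. In the 7 ieCre long arteries the values were 0 (no read, where 3 reads would give 0.799), 0.41, 0.63, 0.92, 1.11, 1.15 and 1.75, which rest on 50 reads in all. In the 7 ieCre short arteries they were 0.80, 1.28, 1.57, 2.12, 2.303, 2.42 and 6.72, which rest on 269 reads. The 2 ieCre groups overlap, since the highest ieCre long library lies above 3 of the 7 ieCre short ones. The mean was 1.38 ± 0.784 (SD, n = 8) in ieET-1 long, 1.14 ± 0.423 (n = 8) in ieET-1 short, 0.852 ± 0.568 (n = 7) in ieCre long and 2.46 ± 1.97 (n = 7) in ieCre short arteries. The highest value, 6.72, came from 14 reads in the library of animal 9957, which at 1820166 reads was the shallowest.

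Endothelin-1 overexpression was not seen to change any of the 4 guide arms, either at long term or at short term. At long term, ieET-1 minus ieCre, the log2 change on the log2(value + 1) scale was -0.12 ± 0.17 (SE) for miR-130a-3p, 0.014 ± 0.22 for miR-130b-3p, -0.19 ± 0.25 for miR-301a-3p and 0.36 ± 0.25 for miR-301b-3p. The adjusted p in limma, with the Benjamini-Hochberg method over the 354 miRNAs tested, was between 0.854 and 0.989. At short term the changes were -0.06 ± 0.17, 0.19 ± 0.22, -0.34 ± 0.25 and -0.56 ± 0.25 in the same order of members, and limma gave an adjusted p of 0.990 for each. Among the members the share called was 0 of 4 at both times, and the share over all tested miRNAs was 0% as well. At an unadjusted p under 0.05, 0 of 4 members passed at long term and 1 of 4 at short term, against 5.65% and 2.54% of all tested miRNAs. edgeR and DESeq2 also called no miRNA at either time. Without the near-identical pair, whose libraries lie on both sides of the short-term comparison, the short-term changes were -0.07 for miR-130a-3p, 0.21 for miR-130b-3p, -0.39 for miR-301a-3p and -0.64 for miR-301b-3p, with adjusted p values of 0.953 to 0.980 in limma.

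The intervals show what size of change these groups could still hold. For miR-130a-3p, the 95% interval of the fold, ieET-1 over ieCre, ran from 0.724 to 1.17 at long term and from 0.755 to 1.22 at short term. For miR-301a-3p it ran from 0.619 to 1.24 at long term and from 0.557 to 1.11 at short term. These folds are on the log2(value + 1) scale, which understates the change of the 2 scarce members. 

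miR-301b-3p was the member whose genotype difference had the smallest p at short term. It was lower in ieET-1 short arteries, with a fold of 0.677 (95% interval 0.476 to 0.962) against ieCre short arteries, an unadjusted p of 0.0306 and place 4 of 354 by p in limma, and it did not pass the adjusted threshold (0.990). Without the shallow library of ieCre short animal 9957 the log2 change was -0.35, against -0.56 with it, and the unadjusted p was 0.132 in limma. At long term the difference had the opposite sign, with a fold of 1.28 (0.902 to 1.82) for ieET-1 over ieCre. The change of the genotype difference between the times, tested as an interaction, was 0.92 ± 0.35 on the log2 scale for miR-301b-3p, with an adjusted p of 0.602 in limma. The interaction was not called for any of the 4 members, nor for any of the 354 miRNAs (0%). At an unadjusted p under 0.05 the interaction of miR-301b-3p passed, as did 6.78% of all tested miRNAs.

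**Figure D2:**
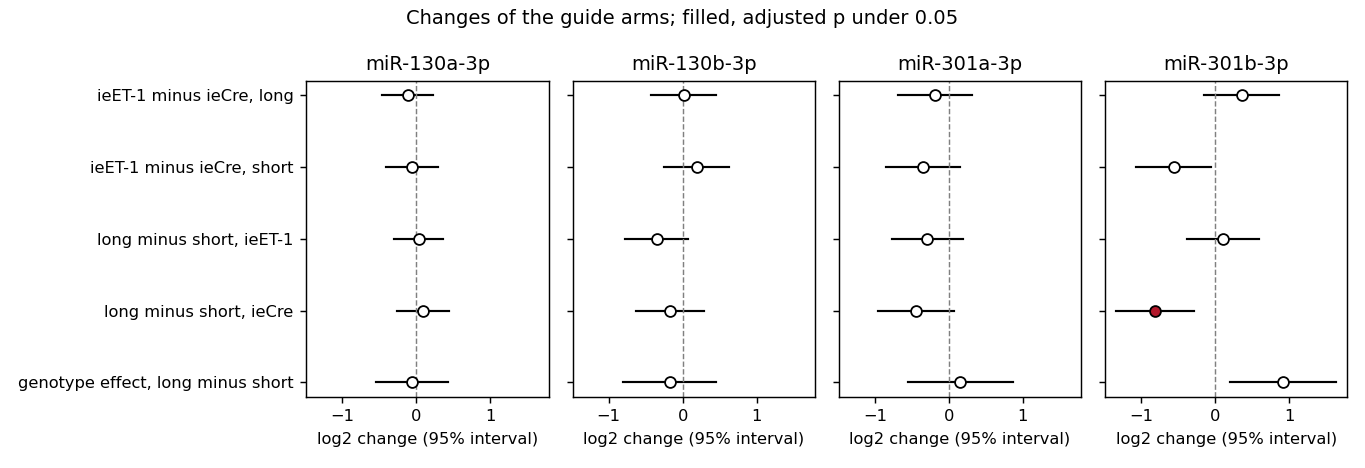
Log2 change of each guide arm with its 95% interval from limma, for ieET-1 minus ieCre at long and at short term, for long minus short term in ieET-1 and in ieCre mice, and for the difference of the genotype effects between the times. The 1 filled point, an adjusted p under 0.05, is miR-301b-3p in ieCre mice.

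One member was called over time after tamoxifen, miR-301b-3p in the ieCre controls. In ieCre mice miR-301b-3p fell by 0.82 ± 0.26 (SE, log2 scale) at long term against short term, a fold of 0.568 (95% interval 0.395 to 0.817), with an adjusted p of 0.0425 in limma. This made 1 of 4 members called, against 7.91% of all tested miRNAs (28 of 354, with 5.65% called lower) in the same comparison, and miR-301b-3p had the largest p of these 28. miR-301a-3p changed by -0.45 ± 0.25 (adjusted p = 0.253 in limma), miR-130b-3p by -0.18 ± 0.22 and miR-130a-3p by 0.09 ± 0.18 between the same groups, with none of them called. The 3 members with negative changes compare with 59% of all tested miRNAs below 0, at a median of -0.13 over all.

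The call for miR-301b-3p rests on few reads and is near the threshold. It was made in 12 of the 30 alternatives computed, with a log2 change of -1.38 to -0.32, always negative, and an adjusted p from 0.000817 to 0.220 over limma, edgeR and DESeq2. Without the shallow library of ieCre short animal 9957 the change was -0.60 (adjusted p = 0.105 in limma), and without ieCre short animals 10, 8 or 931 it was -0.80, -0.82 and -0.79, with adjusted p values in limma of 0.0654, 0.0597 and 0.0618. Without ieCre long animals 8088, 8149 or 8089 it was -0.68, -0.80 and -0.76, with adjusted p values in limma of 0.121, 0.0860 and 0.0877. edgeR, applied to the recovered reads, gave -1.38 and an adjusted p of 0.0744, and DESeq2 gave -1.37 and 0.0456. Leaving out the near-identical pair gave -0.82 with an adjusted p of 0.0604 in limma.

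Marker miRNAs and scaling were read in the same controls. Smooth muscle miRNAs (miR-143 and miR-145, 4 arms listed, none at 0) had a summed value of 385949 to 2254716 in ieCre long and 195656 to 397684 in ieCre short arteries, and 1 of the 4 arms was called higher in limma. Of all tested miRNAs, 2.26% were called higher and 7.91% in either direction between these groups. The epithelial list (16 arms of miR-200, miR-192 and related miRNAs, 2 of them at 0 in all ieCre long and 1 in all ieCre short libraries) summed to 653 to 1377 in ieCre long and 339 to 1204 in ieCre short arteries, with 0 of 8 tested arms called. The endothelial miR-126, with both arms listed, summed to 5468 to 14458 in ieCre long and 5759 to 38673 in ieCre short arteries, with 0 of 2 arms called. The erythroid list (miR-451a, miR-144 and miR-486) summed to 53410 to 405701 in ieCre long and 5549 to 156451 in ieCre short arteries, with 0 of 6 entries called. The pancreas and liver list summed to 14.3 to 4176 and 26.8 to 163 in the same order, with 0 of 4 tested entries called. In the leukocyte, neural and adipose lists 0 of 6, 0 of 6 and 0 of 4 tested entries were called. The log2 change was above 0 for 7 of 8 epithelial, 3 of 4 smooth muscle and 3 of 4 pancreas and liver entries. It was above 0 for 4 of 6 neural, 3 of 6 leukocyte, 2 of 4 adipose, 2 of 6 erythroid and 0 of 2 endothelial entries. Of all tested miRNAs, 59% were below 0. The factor by which the authors had normalized, read from the deposited values, was 0.295 to 1.03 in ieCre long and 1.00 to 1.90 in ieCre short libraries. The part of these in the result for miR-301b-3p was not tested.

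**Figure D3:**
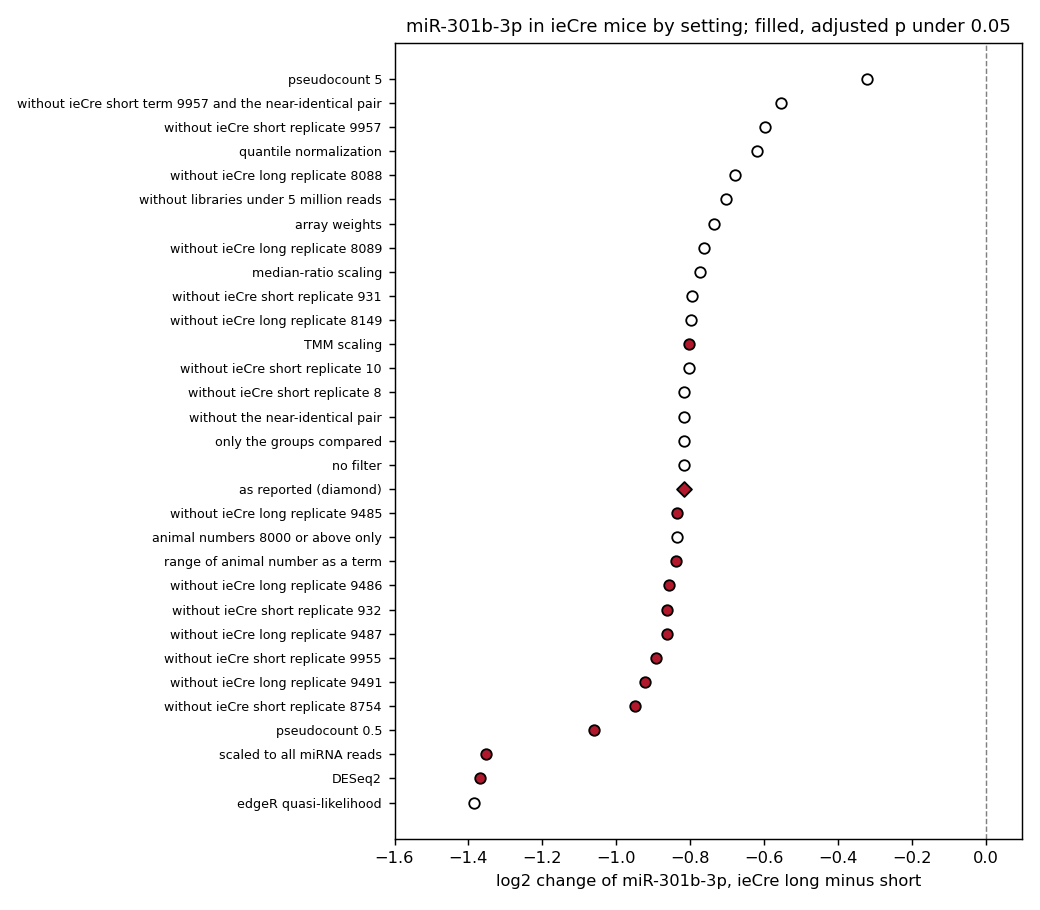
Log2 change of miR-301b-3p, ieCre long minus ieCre short, as reported (diamond) and under each of the 30 alternatives, with filled points for an adjusted p under 0.05. All points lie below 0, between -1.38 and -0.32, and 12 of the 30 alternatives are filled.

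In ieET-1 mice no guide arm was called over time. The log2 change, long minus short, was 0.03 ± 0.16 (SE) for miR-130a-3p, -0.35 ± 0.21 for miR-130b-3p, -0.29 ± 0.24 for miR-301a-3p and 0.11 ± 0.24 for miR-301b-3p, with adjusted p values between 0.290 and 0.943 in limma. In this comparison 5.93% of all tested miRNAs were called. Averaged over both times, the genotype difference was called for 0 of 4 members and 0% of all tested miRNAs. Averaged over both genotypes, 0 of 4 members were called, against 22% of all tested miRNAs. miR-301a-3p then had a change of -0.37 ± 0.17 (unadjusted p = 0.0415, adjusted p = 0.122 in limma) and miR-301b-3p one of -0.36 ± 0.18 (adjusted p = 0.142 in limma). With the range of animal number added to the fit, miR-301a-3p was called in this average, at -0.38 (adjusted p = 0.0451 in limma). Such a term compares ranges within each time and does not match them between the times. That miR-301b-3p was called in ieCre and not in ieET-1 mice does not show that the genotypes differ, since the interaction given above is the test of this and did not pass.

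Among the scalings computed, only the one to the total of miRNA reads changed the calls of the abundant members over time. With TMM, median-ratio and quantile scaling miR-301a-3p changed by -0.45, -0.37 and -0.42 in ieCre mice, not called (adjusted p 0.204 to 0.346 in limma). With each library scaled to its total of miRNA reads, all 4 guide arms were called lower at long term in ieCre mice, at -0.99 for miR-130a-3p, -0.94 for miR-130b-3p, -1.52 for miR-301a-3p and -1.35 for miR-301b-3p (adjusted p 0.000817 to 0.0105 in limma). That scaling moves the median of all tested miRNAs in the same comparison to -0.94, and 213 of them were then called, so miR-130a-3p and miR-130b-3p changed by about as much as the median and miR-301a-3p and miR-301b-3p lay below it. In ieET-1 mice that scaling called no guide arm over time (adjusted p 0.0822 to 0.577 in limma). As a share of all miRNA reads, the family held 0.0324% ± 0.0132 (SD, n = 8) in ieET-1 long and 0.0480% ± 0.0170 (n = 8) in ieET-1 short arteries, and 0.0284% ± 0.0118 (n = 7) in ieCre long and 0.0610% ± 0.0129 (n = 7) in ieCre short arteries. miR-143-3p, the most abundant miRNA, averaged 871768 ± 657939 in ieCre long and 277174 ± 79041 in ieCre short arteries on the deposited scale. Its part in the lower share of the family was not tested.

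The balance between the 2 abundant members does not depend on the scaling. The ratio of miR-301a-3p to miR-130a-3p was 0.527 ± 0.125 (SD, n = 8) in ieET-1 long, 0.656 ± 0.152 (n = 8) in ieET-1 short, 0.612 ± 0.302 (n = 7) in ieCre long and 0.855 ± 0.360 (n = 7) in ieCre short arteries. It ranged from 0.204 to 1.32 over the 30 libraries. miR-130a-3p was the higher of both in 26 libraries, miR-301a-3p in 3 libraries, all ieCre short (animals 10, 9955 and 9957), and both had 4323 reads in the ieCre long library of animal 9486. Among the scarce members, miR-130b-3p was above miR-301b-3p in 26 of 30 libraries. In their group means, miR-130a-3p and miR-301a-3p differ by less than their spread in ieCre short arteries (235 ± 43.7 and 193.7 ± 80.9), while in ieET-1 long arteries every library of miR-130a-3p (160 or above) lies above every library of miR-301a-3p (149 or below).

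Ranges of animal number, which are a division of the labels and not a stated batch, were compared for miR-301a-3p, and none of the differences passed the test over all libraries. In ieET-1 long arteries the 2 mice numbered in the 9000s had values of 115 and 125, within the range of 87.0 to 149 of the 6 mice in the 8000s. In ieCre long arteries the 4 mice in the 9000s had 162 to 208 (mean 187 ± 19.4, SD) and the 3 in the 8000s had 69.7 to 115 (mean 86.5 ± 25.1), with no overlap. At short term the mice numbered 8000 or above had means of 159 ± 30.6 (n = 4) in ieET-1 and 254 ± 90.6 (n = 3) in ieCre arteries, and those below 1000 had 132 ± 28.2 (n = 4) in ieET-1 and 149 ± 36.2 (n = 4) in ieCre arteries. With group kept as a term, the higher range exceeded the lower by 0.64 ± 0.22 (SE, log2) at long term and by 0.48 ± 0.20 at short term, with adjusted p values in limma of 0.0502 and 0.0808, neither of which passes. Without the library of animal 9957 the first of these passed, at an adjusted p of 0.0406 in limma, and the second was 0.35 with 0.224.

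The share of all tested miRNAs called between these ranges was 13.8% at long term and 26.6% at short term, with 0 of 4 members called at either time. miR-130a-3p, miR-130b-3p and miR-301b-3p differed between ranges by -0.23 to 0.12 at long term and by -0.07 to -0.01 at short term (log2), with adjusted p values of 0.381 or more in limma. Normalization factors also differed between the ranges at long term, at 0.737 to 1.03 for the 9000s and 0.295 to 0.611 for the 8000s in ieCre long arteries. In ieET-1 long arteries they were 1.23 or above and 0.907 or below in the same order, with miR-301a-3p means of 120 and 117. At short term the factors of the ranges overlapped. For 8000 or above and below 1000, they were 1.14 to 1.66 and 1.00 to 1.90 in ieCre short arteries (means 254 and 149). In ieET-1 short arteries they were 0.751 to 1.52 and 1.40 to 1.79 (means 159 and 132). The part of the factors in the difference of miR-301a-3p was not tested.

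**Figure D4:**
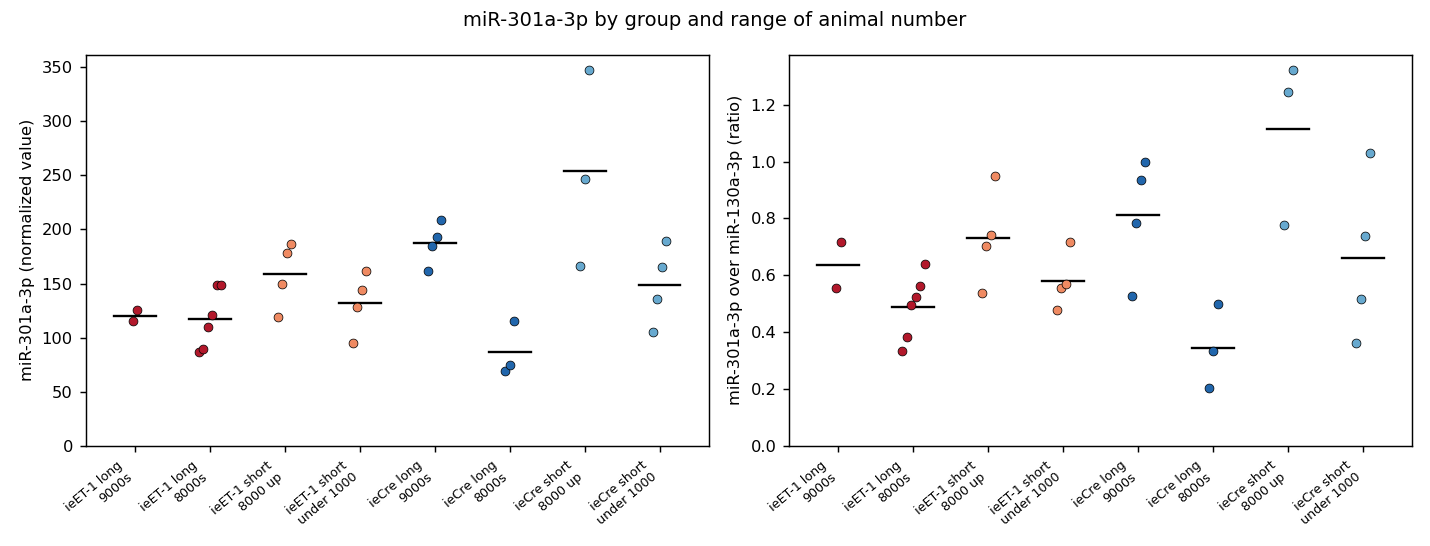
miR-301a-3p as normalized value (left) and as ratio to miR-130a-3p (right) in each library, by group and range of animal number, with a bar at each mean. In ieCre long arteries the values of the 9000s (162 to 208) and of the 8000s (69.7 to 115) do not overlap, and the 3 ieCre short libraries of 8000 or above include the highest value, 348.

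Within ranges, the genotype difference of miR-301a-3p at long term had opposite signs. It was -0.63 (ieET-1 minus ieCre, log2) among the 9000s and 0.44 among the 8000s, where the pooled value was -0.19, and with the range as a term in the fit it was 0.012. miR-301b-3p also had opposite signs, with -0.40 among the 9000s and 0.93 among the 8000s, and a pooled value of 0.36. Its values rest on few reads: the 3 ieCre long libraries of the 8000s held 0, 2 and 5 reads of it. Only 2 ieET-1 long libraries are in the 9000s. No value within a range passed the adjusted threshold in limma, and the difference between the ranges was not tested. At short term both members had the same sign in both ranges, at -0.63 and -0.16 for miR-301a-3p and at -0.61 and -0.52 for miR-301b-3p (8000 or above, then below 1000). For the time comparison in ieCre mice, libraries numbered 8000 or above gave -0.84 for miR-301b-3p (adjusted p = 0.220 in limma) and -0.87 for miR-301a-3p (adjusted p = 0.168 in limma). This subset kept all 7 ieCre long libraries but only 3 ieCre short ones. Among these 3 was the shallow library of animal 9957, with the highest miR-301b-3p value, 6.72. With the range as a term, miR-301b-3p changed by -0.84 (adjusted p = 0.0228 in limma, called) and miR-301a-3p by -0.57 (adjusted p = 0.0511 in limma, not called). The term compares ranges within each time, so it does not match the ranges between short and long term.

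The members did not vary as 1 unit from mouse to mouse. After the group means were subtracted on the log2 scale, Pearson's r over the 30 libraries was -0.09 between miR-130a-3p and miR-301a-3p, the abundant pair. It was -0.14 between miR-130b-3p and miR-301b-3p, although their precursors lie 257 bases apart on 1 strand. The closest pair was miR-301a-3p and miR-301b-3p, from different chromosomes, at 0.56 (Spearman's rho 0.51), and at 0.45 without ieCre short animals 8 and 9957. Between miR-130a-3p and miR-130b-3p, the near-copies, r was 0.13. These values are descriptions: both members of a pair share the depth and scaling of their library, and for the scarce members counting error lowers r.

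**Figure D5:**
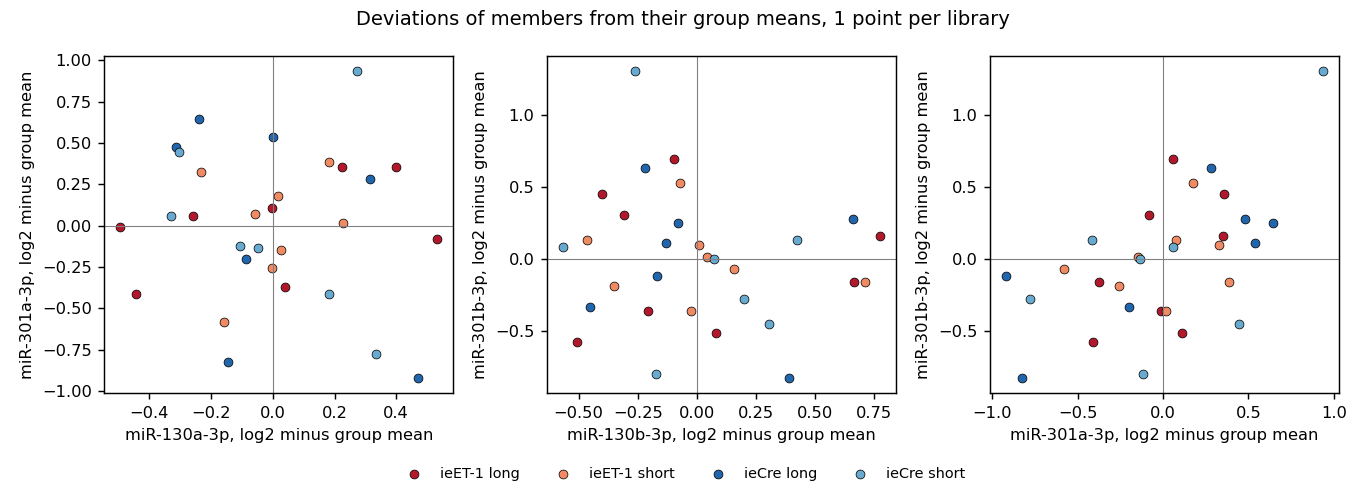
Deviation of each library from its group mean (log2) for 3 pairs of guide arms, 1 point per library, coloured by group. The abundant pair (left, r = -0.09) and the neighbouring pair of chromosome 16 (middle, r = -0.14) show no common trend, while miR-301a-3p and miR-301b-3p (right, r = 0.56) deviate together, with ieCre short animal 9957 at the upper right.

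Outside the family, miR-301a-3p was most like miR-218-5p (r = 0.81 over 30 libraries), miR-126-5p (0.79), miR-30e-5p (0.79) and miR-411-5p (0.78). miR-126 is known as an endothelial miRNA. The closest to miR-301b-3p was miR-411-5p (0.73), followed by miR-451a (0.66), a miRNA of red blood cells, miR-187-3p (0.65) and let-7e-3p (0.63). miR-130a-3p was nearest to miR-5099 (0.69), miR-328-3p (0.64), miR-100-3p (0.61) and miR-1843b-5p (0.57), and miR-1843b-5p has a near-identical copy among the listed miRNAs, so its reads are uncertain. miR-130b-3p had weaker neighbours, with miR-92a-3p (0.49, for the entry listed as copy 2), miR-673-5p (0.45) and miR-486-5p (0.45, listed in 2 entries with shared reads). These names were taken as the 4 highest of all tested miRNAs, so their r values are high by choice, and no p is given.

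A group of 5 miRNAs whose seeds hold part of the family seed, displaced by 1 base, were compared as related regulators. The sequences show the shift against AGUGCAA (RefSeq, GRCm38.p6, seed in capitals).
miR-19a-3p: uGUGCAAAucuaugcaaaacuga
miR-19b-3p: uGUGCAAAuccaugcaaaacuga
miR-148a-3p: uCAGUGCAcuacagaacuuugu
miR-148b-3p: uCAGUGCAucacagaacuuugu
miR-152-3p: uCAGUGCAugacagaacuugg
miR-19a and miR-19b are part of the miR-17-92 cluster, known to promote proliferation, and the miR-148/152 group is known to repress a DNA methyltransferase. Of these 5, 0 were called between genotypes at either time (0% of all tested). Over time in ieCre mice 2 of 5 rose and 0 fell, against 2.26% of all tested miRNAs called higher. miR-19b-3p averaged 106 ± 13.02 (SD, n = 7) in ieCre long and 55.2 ± 49.4 (n = 7) in ieCre short arteries, a fold of 2.40 with an adjusted p of 0.0167 in limma. In ieET-1 mice miR-19b-3p rose as well, at 93.4 ± 22.7 (n = 8) at long term and 47.3 ± 24.3 (n = 8) at short term (adjusted p = 0.0331 in limma), where 1.98% of all tested miRNAs were called higher. miR-19a-3p averaged 6.63 ± 2.55 (n = 7) in ieCre long and 2.50 ± 1.26 (n = 7) in ieCre short arteries (adjusted p = 0.0218 in limma). Scaled to all miRNA reads, these changes were not called, at 0.19 for miR-19b-3p (adjusted p = 0.671 in limma) and 0.29 for miR-19a-3p (adjusted p = 0.470 in limma) in ieCre mice and 0.64 for miR-19b-3p (adjusted p = 0.219 in limma) in ieET-1 mice. With quantile scaling miR-19b-3p in ieET-1 mice was not called (adjusted p = 0.0673 in limma). Without the near-identical pair miR-19b-3p in ieET-1 mice (adjusted p = 0.0801 in limma) and miR-19a-3p in ieCre mice (adjusted p = 0.0545 in limma) were not called. No guide arm of the miR-130/miR-301 family was called higher over time in either genotype.

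A list of miRNAs reported in vascular remodelling or pulmonary hypertension gave a wider setting. With every arm and copy of each taken, it had 51 entries, of which 35 were tested. None of the 35 was called between genotypes at long or at short term, as for the family and for all tested miRNAs (0%). Over time in ieCre mice 1 of 35 rose, miR-143-3p, the smooth muscle miRNA, and 1 fell, miR-138-5p, at 6.43 ± 4.92 (SD, n = 7) in ieCre long and 32.2 ± 24.3 (n = 7) in ieCre short arteries (adjusted p = 0.0177 in limma). Of all tested miRNAs, 2.26% were called higher and 5.65% lower between the same groups. In ieET-1 mice 1 of 35 rose, miR-29b-3p, a repressor of collagen genes, at 26.02 ± 7.50 (n = 8) at long term and 14.9 ± 5.89 (n = 8) at short term (adjusted p = 0.0481 in limma). Of all tested miRNAs, 1.98% were called higher there. Scaled to all miRNA reads, miR-143-3p (0.34, adjusted p = 0.151 in limma) and miR-29b-3p (0.37, adjusted p = 0.476 in limma) were not called in these comparisons, while miR-138-5p was (-2.99, adjusted p = 0.00167 in limma). With quantile scaling miR-143-3p did not change in ieCre mice (3.6e-15) and was not called. That scaling gives the most abundant miRNA of every library the same value, so it cannot show a change of miR-143-3p. miR-29b-3p was also not called with TMM scaling (adjusted p = 0.0621 in limma), with quantile scaling (0.0995) or without the near-identical pair (0.0994). The median log2 change of the 35 over time was -0.05 in ieET-1 mice, against -0.09 over all tested miRNAs, and 0.05 in ieCre mice, against -0.13 over all.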

How the data were processed

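Per the labels' protocols, 1 µg of total RNA entered each TruSeq small RNA library. Tools named without their roles were edgeR 3.6.8, R 3.2.3, STAR 2.3.1, FastQC and bcl2fastq 1.8.4, per the submitters' processing notes. For trimming, genome build, annotation and counting rules, nothing is given in the sources used here. Signal values in the deposited table had been normalized by the authors, with 1 value for each miRNA in each library. All values were whole multiples of 1 step per library (100%, within a relative tolerance of 0.001), so reads were recovered by division. Large values pass a relative tolerance in any case, so the check bears on the low values only. The implied normalization factors were 0.295 to 1.90. Of 32 labelled mice, 2 ieCre mice were not analysed here.

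Tested were miRNAs that reached a value of 1 in 8 or more libraries (354 of 870, which hold 99.99% of the reads). That minimum stands for 3 to 57 reads. The two-sided test was limma 3.58.1, run in R 4.3.3, on log2(value + 1) with the trend option and all 4 groups fitted together, Benjamini-Hochberg adjustment over all tested miRNAs and a threshold of 0.05. Alternatives used edgeR 4.0.16 (quasi-likelihood) and DESeq2 1.42.0 on recovered reads, other scalings, filters, pseudocounts and subsets of libraries. Fits within ranges of animal number, and without 9957 and the near-identical pair together, and the named list members under other scalings were added after the data were seen. Shares have exact binomial intervals and a floor of 3 reads, which cover counting error only. A permutation test of the passenger share was set for precursors with at least 10 passenger reads on average, and none reached that. Named miRNAs are all members, the listed miRNAs called in a comparison and the 4 closest to each guide arm by correlation. Members and lists were chosen with earlier results of these data known. The steps were tested on simulated data. Sequences come from RefSeq and figures from matplotlib 3.10.9 (Python 3.11.15).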

Additional observations from a re-analysis of the deposited data

How the results depend on the processing

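No paired analysis was possible because no animal number occurs in more than 1 group. Between genotypes at either time, in the interaction and in the average over times, 0 members were called as reported and in every alternative computed. Over time in ieCre mice 1 member, miR-301b-3p, was called, against 0 with a pseudocount of 5, no filter, a filter at 10 (which removes miR-130b-3p and miR-301b-3p), median-ratio or quantile scaling, edgeR, array weights, only the groups compared, without libraries under 5000000 reads, without the near-identical pair, without 9957 and that pair, and with animal numbers 8000 or above only. The counts without 1 library ranged from 0 to 1. Scaled to all miRNA reads, 4 members were called in ieCre mice and 4 in the average over genotypes, and with a term for animal number range 1 (miR-301a-3p) in that average. Apart from the filter at 10, the cause was not tested.

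None of the values that changed sign below was called, except where stated. Scaled to all miRNA reads, miR-130a-3p changed by -0.99 over time in ieCre mice and by -0.72 in the average (both called), by -0.44 over time in ieET-1 mice, by 0.30 for ieET-1 minus ieCre at long term, 0.023 in the genotype average and 0.55 in the interaction. Under it miR-301a-3p changed by 0.22 at long term, miR-130b-3p by 0.22 in the interaction and miR-301b-3p by -0.21 over time in ieET-1 mice. TMM scaling gave miR-130a-3p 0.045 for the genotype at short term, -0.0012 over time in ieET-1 mice and 0.0027 in the genotype average. Quantile scaling gave miR-130b-3p -0.025 for the genotype at long term and 0.020 over time in ieCre mice. Without libraries under 5000000 reads, miR-130b-3p changed by -0.085 for the genotype at long term, miR-301a-3p by -0.074 in the interaction, miR-130a-3p by -0.075 over time in ieET-1 mice and miR-301b-3p by 0.0079 in the genotype average. With the range as a term, miR-301a-3p was 0.012 for the genotype at long term and miR-130a-3p -0.0080 over time in ieET-1 mice. For the genotype at long term, the 8000s alone gave miR-301a-3p 0.44, and the 9000s alone gave miR-130b-3p -0.11 and miR-301b-3p -0.40. Leaving out each library in turn, miR-301a-3p in the interaction ranged from -0.0030 to 0.28 and miR-130a-3p from -0.14 to 0.018, miR-301b-3p in the genotype average from -0.17 to 0.0061, miR-130a-3p over time in ieET-1 mice from -0.048 to 0.099 and miR-130b-3p for the genotype at long term from -0.097 to 0.12. Depth limits miR-130b-3p and miR-301b-3p, for which counting error gives a coefficient of variation of 11.4% to 49.2%, depending on the group.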
